A study of Mus musculus with 4 samples.

Results

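Condensin and topoisomerase II are the proteins that fold and disentangle chromosomes, and their mRNAs were followed here from NSN to SN oocytes. The 10 genes were chosen by name and not by a filter on their values, though earlier results of these data were known. They are the 8 condensin subunit genes Smc2, Smc4, Ncapd2, Ncapg, Ncaph, Ncapd3, Ncapg2 and Ncaph2 and the topoisomerase II genes Top2a and Top2b. All 10 occur among the 16861 genes listed in the libraries. All 10 also passed the filter on low values (mean FPKM 0.5 or more), as did 11672 genes in all.

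The study compared germinal vesicle (GV) oocytes, fully grown and still arrested in prophase of meiosis, in their 2 chromatin configurations. In NSN (non-surrounded nucleolus) oocytes the chromatin is spread through the nucleus, and in SN (surrounded nucleolus) oocytes it is condensed around the nucleolus and transcription is largely silent. Both groups came from untreated female C57BL/6J mice of 3 weeks. Oocytes were taken from antral follicles, stripped of cumulus cells by pipetting, stained for DNA with Hoechst dye, classified one by one under a fluorescence microscope and freed of the zona pellucida. Each group has 2 Smart-seq2 libraries, and each library was made from 15 pooled oocytes with 18 cycles of amplification. No source says that the replicate libraries came from different mice, so the p-values measure only the spread between these libraries, which may be technical. A library describes the average of the pooled oocytes, in which fewer expressing cells and less RNA per cell cannot be told apart.

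Condensin is a ring-shaped ATPase that extrudes DNA loops and compacts mitotic and meiotic chromosomes. Its SMC2 and SMC4 subunits form a heterodimer shared by condensin I and condensin II. Each complex adds a kleisin that closes the ring (NCAPH in condensin I, NCAPH2 in condensin II) and a pair of HEAT-repeat subunits (NCAPD2 and NCAPG in condensin I, NCAPD3 and NCAPG2 in condensin II). In mitotic cells condensin II is nuclear in interphase, whereas condensin I reaches the chromosomes after the nuclear envelope breaks down. Topoisomerase II passes one DNA duplex through another and thereby removes tangles between chromatids. TOP2A is the form of dividing cells, and TOP2B is the form that also persists in cells that no longer divide. In mouse oocytes condensin and topoisomerase II act in the shaping of meiotic chromosomes and in their segregation.

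Depth was similar in the 4 libraries, with totals of 17069772 to 17998361 read pairs recovered from the deposited FPKM (read pairs scaled by gene length and by the library total). For a gene of 1 kb, 3 read pairs made an FPKM of 0.167 to 0.176, a limit that covers counting error only. The 100 genes of highest mean FPKM took 37.0% to 38.0% of the read pairs in NSN and 33.7% to 33.8% in SN libraries. Since FPKM are shares of a library, they do not give absolute amounts, and the amount of RNA per oocyte was not measured in these files. Across the genes tested, log2 fold changes had a median of 0.14 in favour of SN, and 66.7% of the genes had a positive value. All 15 oocyte markers were listed, at summed FPKM of 34788 to 35167 in NSN and 25057 to 26811 in SN. In the test described below, 10 of them were called lower in SN, against 1.98% of all genes tested. Of 18 granulosa and cumulus markers, 11 were listed, with summed FPKM of 10.1 to 14.5 in NSN and 14.3 to 14.6 in SN. Cyp19a1, the aromatase of granulosa cells, had the highest mean of these, 7.62 FPKM. Of 9 markers of other ovarian cells, 4 were listed, with sums of 6.08 to 7.45 in NSN and 7.93 to 8.04 in SN. No listed marker was at 0 in any library. Of the non-oocyte markers, 4 of the 11 and 3 of the 4 were abundant enough to be tested, and none of these passed. Their part in the results was not tested.

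The mRNAs of the 10 genes ranged from 0.516 to 220.8 FPKM. Smc4, Ncapg and Ncaph stood far above the others. Smc2, Ncapg2, Top2a, Ncapd3 and Ncaph2 lay between 4.83 and 10.6 FPKM in every library. Top2b was lower, and Ncapd2 was the lowest. Smc4 ranked 327 of the 11672 genes tested by mean FPKM, Ncapg ranked 402 and Ncaph 970. Ncapd2 ranked 11291, so that 3.26% of the genes tested lay below it.

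**Figure D1:**
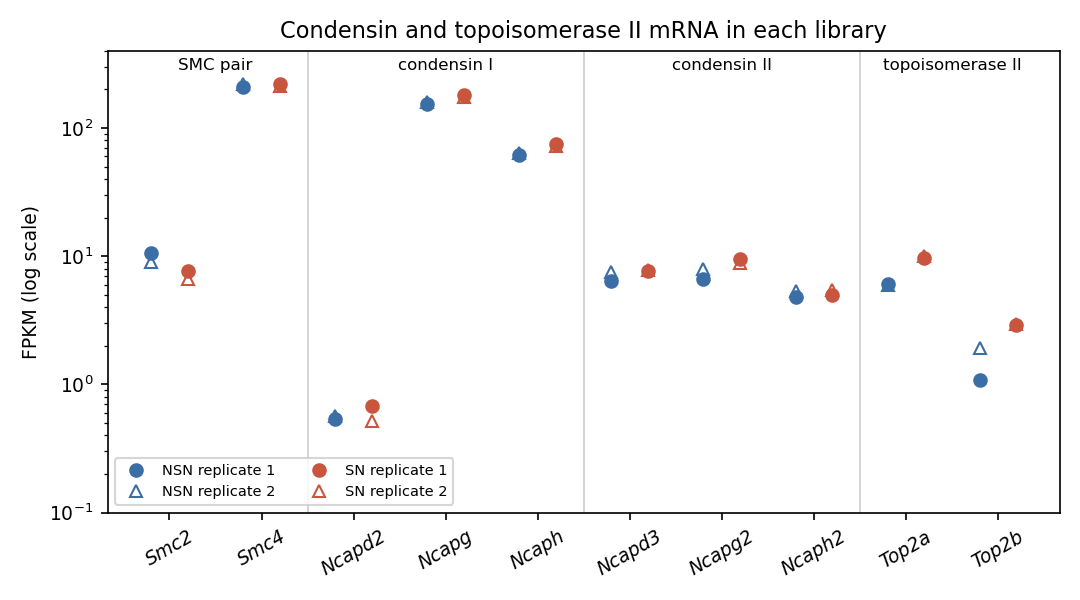
FPKM of the 10 genes (log scale) in the 2 NSN libraries (blue) and the 2 SN libraries (red), with replicate 1 as filled circles and replicate 2 as open triangles. Smc4, Ncapg and Ncaph lie above 60 FPKM in all 4 libraries and Ncapd2 between 0.516 and 0.683, while the SN points lie clearly above the NSN points for Top2a and Top2b and below them for Smc2.

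The comparison asked whether these mRNAs differed between the configurations. A call needed an adjusted p under 0.05 (limma, Benjamini-Hochberg) together with a 1.2-fold change, and 926 of 11672 genes (7.93%) were called with the values as deposited. Of all genes tested, 5.95% were called higher in SN and 1.98% lower. Among the 10 genes, 1 was called higher (Top2a) and none lower. At an unadjusted p under 0.05 limma gave 5 of the 10 as higher, against 23.8% of all genes tested, and 1 as lower, against 7.86%. Both SN libraries lay above both NSN libraries for 6 of the 10 genes (Ncapg, Ncaph, Ncapg2, Ncapd3, Top2a and Top2b), against 44.8% of all genes tested. Both lay below for 1 of 10 (Smc2), against 17.8% of all genes tested. The groups overlapped for Smc4, Ncaph2 and Ncapd2. The median log2 fold change of the 10 genes was 0.16, close to the median of 0.14 over all genes tested, and it was 0.01 after the libraries were scaled to equal medians. The 3 genes farthest from 0 were Top2b, Top2a and Smc2.

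**Figure D2:**
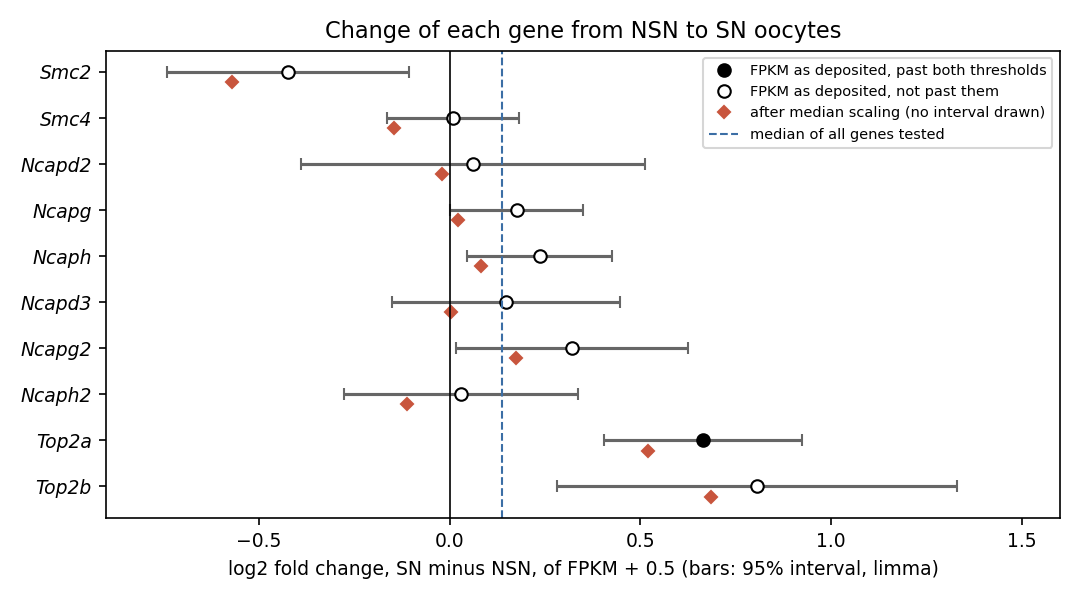
Log2 fold change (SN minus NSN) of each of the 10 genes on the scale of log2(FPKM + 0.5), with 95% intervals from limma (2 libraries per group), as circles that are filled where the gene passed both thresholds. Red diamonds give the value after median scaling and the dashed line the median of all genes tested, 0.14. Top2a and Top2b lie to the right and Smc2 to the left on both scales, whereas Smc4, Ncapd2 and Ncaph2 lie right of 0 as deposited and left of 0 after scaling.

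Smc4, on chromosome 3 of GRCm39 from 68911944 to 68941960, encodes the SMC subunit that binds the kleisin through its head domain. Its FPKM were 209.7 and 220.8 in NSN and 219.4 and 213.6 in SN, where here and in what follows replicate 1 is given before replicate 2. The groups overlapped, and the means were 215.3 ± 7.90 in NSN and 216.5 ± 4.12 in SN (SD, n = 2). The log2 fold change was 0.01 (SE 0.07, 95% interval -0.16 to 0.18, limma adjusted p = 0.949). This is the tightest interval of the 10 genes, and it rests on 15754 to 17073 read pairs per library. The sign of so small a value turned with the scaling, to -0.15 after median scaling (limma adjusted p = 0.249).

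Smc2, on chromosome 4 from 52439214 to 52488264, encodes the partner SMC subunit. It was the only one of the 10 genes that was lower in both SN libraries. Its FPKM were 10.6 and 9.04 in NSN and 7.69 and 6.66 in SN, from 875 to 993 read pairs in NSN and 648 to 709 in SN. The means were 9.80 ± 1.07 and 7.17 ± 0.724 (SD, n = 2), 1.37-fold higher in NSN. The log2 fold change of -0.42 (SE 0.13, 95% interval -0.74 to -0.11) did not pass the threshold (limma adjusted p = 0.0880). It passed where only genes with a mean FPKM of 5 or more were tested (limma adjusted p = 0.0497) and with voom, limma's model for counts, on the read pairs (log2 fold change -0.45, adjusted p = 0.0216). It did not pass where all listed genes were tested (limma adjusted p = 0.123) or with no variance trend (limma adjusted p = 0.129). With each library left out in turn, the log2 fold change of Smc2 ran from -0.53 to -0.32. Of its exonic bases, 10.4% lie in Smc2os, an antisense gene, and counting without regard to strand cannot tell their reads apart.

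The partners SMC2 and SMC4 were thus unequal at the mRNA level. Smc4 FPKM exceeded Smc2 FPKM by 19.9 and 24.4 times in NSN and by 28.5 and 32.1 times in SN oocytes. The ratio was higher in both SN libraries, by 0.46 on the log2 scale, where the SD between replicates was 0.21 in NSN and 0.12 in SN. A ratio of genes within a library does not depend on the library total, so the change does not turn with the scaling. With annotated exonic lengths in place of the lengths behind the FPKM the ratios were lower, from 13.9 to 22.4, in the same order of libraries. With 2 libraries against 2, the smallest two-sided p of an exact permutation test is 0.333, and the ratios are given without a test.

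**Figure D3:**
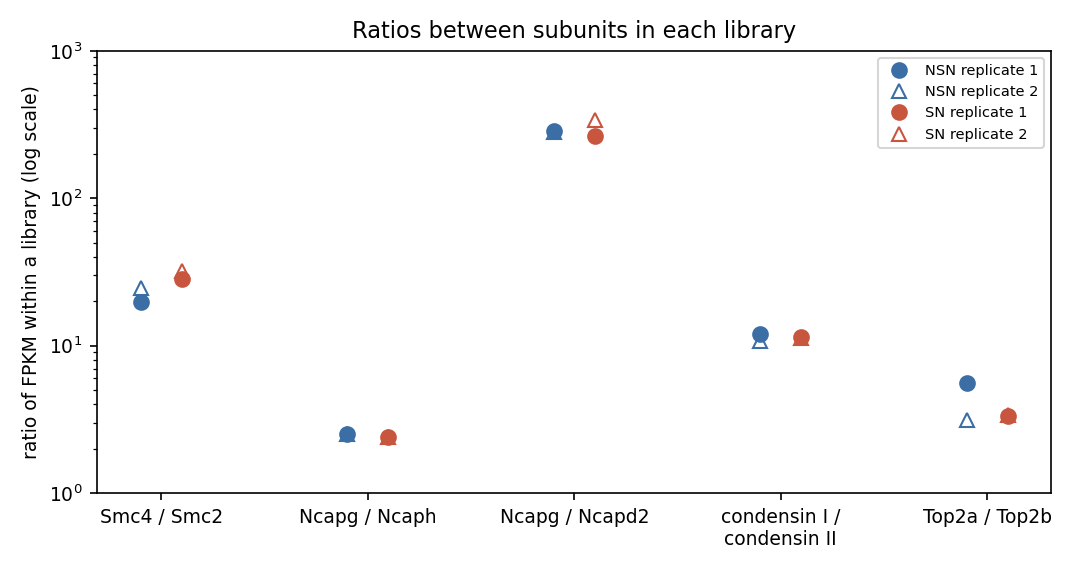
Ratios of FPKM between genes within each library (log scale), for NSN (blue) and SN (red) with replicate 1 as filled circles and replicate 2 as open triangles. The Smc4 to Smc2 ratio lies at 28.5 and 32.1 in SN against 19.9 and 24.4 in NSN, the ratio of condensin I to condensin II overlaps between the groups, and the Top2a to Top2b ratio has 1 NSN library, replicate 1, above the other 3.

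The subunits particular to condensin I differed widely among themselves. Ncapg and Ncaph were abundant, and Ncapd2 was scarce. Ncapg, a HEAT-repeat subunit gene on chromosome 5 from 45827150 to 45859062, had FPKM of 153.2 and 160.6 in NSN and 179.5 and 175.0 in SN. Both SN libraries were above both NSN libraries, with a log2 fold change of 0.18 (SE 0.07, 95% interval 0.0016 to 0.35) that did not pass the threshold (limma adjusted p = 0.155). Of its exonic bases, 25.0% lie in the neighbouring gene Lcorl.

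Ncaph, the kleisin gene of condensin I on chromosome 2 from 126945729 to 126975874, had FPKM of 61.0 and 64.1 in NSN and 75.1 and 72.4 in SN. Its groups did not overlap either, and the log2 fold change was 0.24 (SE 0.08, 95% interval 0.05 to 0.43, limma adjusted p = 0.103). The Ncapg to Ncaph ratio was nearly constant, at 2.51 and 2.50 in NSN and 2.39 and 2.42 in SN. Its level rests on the lengths used, and it was 1.77 to 1.87 with canonical transcript lengths and 1.91 to 2.01 with annotated exonic lengths. After median scaling the log2 fold changes were 0.02 for Ncapg and 0.08 for Ncaph, that is close to the median gene.

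Ncapd2, the other HEAT-repeat subunit gene of condensin I on chromosome 6 from 125144962 to 125169080, had FPKM of 0.534 and 0.567 in NSN and 0.683 and 0.516 in SN. These values stand for 43, 47, 54 and 43 read pairs. The exact Poisson 95% intervals of these counts ran from 31.1 to 57.9 for the lowest and from 40.6 to 70.5 for the highest, and so overlapped. The groups overlapped, and the log2 fold change of 0.06 (SE 0.19, 95% interval -0.39 to 0.51, limma adjusted p = 0.844) has the widest interval of the condensin genes. Ncapg exceeded Ncapd2 by 263 to 339 times and Ncaph exceeded it by 110 to 140 times. With canonical transcript lengths the ranges were 213 to 274 and 120 to 153, so the gap between the subunits of condensin I does not rest on the lengths used.

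The condensin II subunits were close to each other, between 4.83 and 9.49 FPKM. Ncapd3, on chromosome 9 from 26941456 to 27006626, had FPKM of 6.43 and 7.56 in NSN and 7.71 and 7.86 in SN. The SN libraries were above the NSN libraries by a narrow margin, and the log2 fold change was 0.15 (SE 0.12, 95% interval -0.15 to 0.45, limma adjusted p = 0.444). Ncapd3 thus exceeded Ncapd2, its counterpart in condensin I, by 11.3 to 15.2 times, the reverse of the order seen for the other subunits.

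Ncapg2, on chromosome 12 from 116368940 to 116427351, had FPKM of 6.63 and 7.88 in NSN and 9.49 and 8.83 in SN. The SN libraries were higher, with a log2 fold change of 0.32 (SE 0.13, 95% interval 0.02 to 0.62, limma adjusted p = 0.143). Ncapg exceeded Ncapg2 by 18.9 to 23.1 times. The length behind the Ncapg2 values is 4684 bases, and with the canonical transcript of 6659 bases its FPKM would be 4.67 to 6.68.

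Ncaph2, the kleisin gene of condensin II on chromosome 15 from 89239895 to 89257056, had FPKM of 4.83 and 5.33 in NSN and 4.94 and 5.46 in SN. The groups overlapped, and the log2 fold change was 0.03 (SE 0.13, 95% interval -0.28 to 0.34, limma adjusted p = 0.892). Of its exonic bases, 68.8% lie in other annotated genes, the largest such share of the 10 genes, and reads in these bases cannot be assigned with certainty. Ncaph exceeded Ncaph2 by 12.0 to 15.2 times.

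Summed over their particular subunits, condensin I had 220.0 ± 7.46 FPKM in NSN and 251.6 ± 5.20 in SN (SD, n = 2), and condensin II had 19.3 ± 2.03 and 22.1 ± 0.0035. The ratio of the sums was 12.0 and 10.8 in NSN and 11.5 and 11.2 in SN. The groups overlapped, and the difference of -0.01 on the log2 scale was smaller than the SD of 0.10 between the NSN replicates. The sum for condensin I comes from Ncapg and Ncaph, since Ncapd2 adds less than 1 FPKM to it. In all, 11 ratios between the genes were computed, of which 4 were higher in both SN libraries, 2 were lower in both and 5 overlapped. Several of these ratios share a gene, so they are not separate observations. No share over ratios of other genes was computed to set beside these counts.

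Topoisomerase II held the one gene past both thresholds. Top2a, on chromosome 11 from 98883769 to 98915062, had FPKM of 6.07 and 5.97 in NSN and 9.69 and 9.97 in SN. The values stand for 552 and 558 read pairs in NSN and 864 and 937 in SN, and the replicates of each group were close together. The means were 6.02 ± 0.0751 and 9.83 ± 0.196 (SD, n = 2), 1.63-fold higher in SN. The log2 fold change was 0.66 (SE 0.11, 95% interval 0.40 to 0.92) and passed both thresholds (limma adjusted p = 0.0364). The call lay near the threshold. It was lost after median scaling (log2 fold change 0.52, limma adjusted p = 0.0583) and without NSN replicate 1, SN replicate 1 or SN replicate 2 (adjusted p = 0.0772, 0.0829 and 0.107), where the group left with 1 library is assumed to vary like the other. It was kept with voom on the read pairs, with and without median scaling. The log2 fold change stayed between 0.48 and 0.71 in the settings tried.

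Top2b, on chromosome 14 from 6034301 to 6104605, had FPKM of 1.09 and 1.91 in NSN and 2.89 and 2.96 in SN. Both SN libraries were above both NSN libraries, and the NSN replicates were far apart, at 196 and 354 read pairs. The means were 1.50 ± 0.582 and 2.92 ± 0.0544 (SD, n = 2), 1.95-fold higher in SN. The log2 fold change of 0.81 was the largest of the 10 genes, but its error was also the largest (SE 0.22, 95% interval 0.28 to 1.33), and it did not pass the threshold (limma adjusted p = 0.0676). It passed with voom on the read pairs (log2 fold change 1.01, adjusted p = 0.00341). It also passed without NSN replicate 2 (log2 fold change 1.11, adjusted p = 0.0156), but there the spread comes from the SN pair alone and the lone NSN library is assumed to vary alike. Without NSN replicate 1 the log2 fold change was 0.51. Of its exonic bases 17.0% lie in other annotated genes, among them Rarb.

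With voom on the read pairs, Top2a and Top2b were called higher and Smc2 lower, where 15.1% of 11660 genes were called higher and 4.58% lower. The summed FPKM of Top2a and Top2b were 7.52 ± 0.507 in NSN and 12.8 ± 0.250 in SN (SD, n = 2). The Top2a to Top2b ratio was 5.57 and 3.12 in NSN and 3.36 and 3.37 in SN. The SN replicates were nearly equal, and they lay within the range of the NSN replicates. The difference was -0.31 on the log2 scale, -0.73 without NSN replicate 2 and 0.11 without NSN replicate 1, so its direction depends on the NSN libraries.

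The order of the less abundant genes differed between the groups on the FPKM as deposited. In NSN, Smc2 lay above the other 4 genes of this range, Ncapg2 and Ncapd3 overlapped each other, and Top2a lay below them and above Ncaph2. In SN, Top2a was the highest, Ncapg2 came next, Ncapd3 followed, and Smc2 lay below Ncapd3 by a narrow margin. With canonical transcript lengths Ncapg2 moved down, to 6.68 and 6.21 FPKM in SN, and overlapped Smc2. In NSN it moved to 4.67 and 5.54 FPKM with these lengths, below Top2a at 6.04 and 5.94, and overlapped Ncaph2. Ncapg2 then lay below Ncapd3 in both groups. The fall of Smc2 from above Top2a to below it held with these lengths, at 9.04 to 10.6 against 5.94 to 6.04 FPKM in NSN and 6.66 to 7.69 against 9.65 to 9.92 FPKM in SN.

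Promoters were examined because many genes of the cell cycle, condensin and Top2a among them, share promoter elements that couple them to proliferation. RefSeq promoter sequences, from 250 bases before to 50 bases after the transcription start on GRCm38.p6, were matched by symbol for 9 of the 10 genes, with 2 promoters for Ncapd3 and no entry for Smc4. They were searched on both strands for the cell cycle genes homology region (CHR, TTTGAA or TTCGAA), the CCAAT box (CCAAT), E2F sites (TTTCCCGC, TTTGGCGC, TTTCGCGC or TTTGCCGC) and the TATA box (TATAAA). The promoters of the topoisomerase II paralogues are shown because both genes were higher in the SN libraries, and those of Ncapg and Ncapd2 because these subunits of condensin I differed most in level. Capitals mark the matches to any of the 4 motifs.
Top2a promoter (GRCm38.p6, chr11:99024140-99024439, minus strand): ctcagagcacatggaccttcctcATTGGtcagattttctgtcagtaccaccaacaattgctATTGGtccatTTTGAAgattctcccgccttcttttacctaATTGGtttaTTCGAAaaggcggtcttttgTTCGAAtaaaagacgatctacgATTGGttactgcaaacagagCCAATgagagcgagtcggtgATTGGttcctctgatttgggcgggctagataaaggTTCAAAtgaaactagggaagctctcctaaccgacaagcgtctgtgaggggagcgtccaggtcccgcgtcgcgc
Top2b promoter (GRCm38.p6, chr14:16364956-16365255, plus strand): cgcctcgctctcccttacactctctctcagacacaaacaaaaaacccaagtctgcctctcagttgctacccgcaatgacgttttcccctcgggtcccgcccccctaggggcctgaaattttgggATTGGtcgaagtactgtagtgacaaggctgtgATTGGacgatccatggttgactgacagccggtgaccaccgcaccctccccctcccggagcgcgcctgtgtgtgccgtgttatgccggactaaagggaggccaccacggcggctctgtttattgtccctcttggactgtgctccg
Ncapg promoter (GRCm38.p6, chr5:45669675-45669974, plus strand): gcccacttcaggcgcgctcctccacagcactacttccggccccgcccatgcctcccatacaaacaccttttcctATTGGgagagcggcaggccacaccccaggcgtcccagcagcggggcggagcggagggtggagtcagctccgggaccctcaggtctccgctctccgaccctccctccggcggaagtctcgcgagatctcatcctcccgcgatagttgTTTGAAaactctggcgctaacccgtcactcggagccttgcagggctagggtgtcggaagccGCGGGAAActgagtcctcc
Ncapd2 promoter (GRCm38.p6, chr6:125191537-125191836, minus strand): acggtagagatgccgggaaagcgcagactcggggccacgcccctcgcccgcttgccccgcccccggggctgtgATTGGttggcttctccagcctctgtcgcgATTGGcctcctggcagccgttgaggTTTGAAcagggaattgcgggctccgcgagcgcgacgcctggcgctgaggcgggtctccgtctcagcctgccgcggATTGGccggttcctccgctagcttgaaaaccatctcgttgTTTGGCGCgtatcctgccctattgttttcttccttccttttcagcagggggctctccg

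The Top2a promoter held 4 CHR and 6 CCAAT matches, and the Top2b promoter held no CHR and 2 CCAAT matches. TTCGAA reads the same on both strands and was counted as 1 match. Ncapg had 1 match each for CHR, CCAAT and E2F. Ncapd2 had 1 CHR, 3 CCAAT and 1 E2F match, so the same kinds of motif stood before the most and the least abundant of the genes particular to condensin I. A CHR match was found in 7 of the 10 promoters, against 15.2% of 10542 promoters of the genes tested. E2F matches were found in 3 of 10 (4.04% of the promoters of genes tested), CCAAT in 5 of 10 (38.9%) and TATA in 1 of 10 (8.03%). The TATA match lay 44 bases after the transcription start, in 1 of the Ncapd3 promoters. That promoter also held 1 CHR match, and the other Ncapd3 promoter held no match to any of these motifs. A match describes the letters only and says nothing on binding in oocytes.

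The 3' ends were examined because Smart-seq2 primes at the poly(A) tail and because stored mRNAs of oocytes are regulated through cytoplasmic polyadenylation elements (CPE, TTTTAT or TTTTAAT). In the last 100 bases of the canonical GENCODE transcripts, searched on the transcript strand only, a CPE was found in 4 of the 10 genes (Smc2, Ncapd2, Ncapd3 and Ncapg2), against 17.9% of 9596 protein-coding genes tested. A polyadenylation hexamer (AATAAA or ATTAAA) was found in 8 of 10, against 78.8%. The ends of Ncapd2 and Top2a are shown as one with and one without a CPE. Capitals mark the hexamer and, in Ncapd2, the CPE that follows it.
Ncapd2 transcript end: taatgAATAAAtgtTTTTATagacttttaa
Top2a transcript end: tttAATAAAtcttctaaacaatgcaagcca
The 4 genes with a CPE had log2 fold changes of -0.42 (Smc2), 0.06 (Ncapd2), 0.15 (Ncapd3) and 0.32 (Ncapg2), of which only Smc2 lay below 0.

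Genes that act on condensin were measured as a list of 16, all tested. They include kinases and phosphatases that act on it and chromosome proteins that work with it. Of these, 1 was called higher in SN and none lower, near the 5.95% and 1.98% of all genes tested. The median log2 fold change was 0.21, against 0.14 over all genes tested. The gene called was Ppp2ca, the catalytic subunit of protein phosphatase 2A. It had FPKM of 2.72 and 2.68 in NSN and 4.92 and 4.74 in SN, a log2 fold change of 0.74 (SE 0.13, limma adjusted p = 0.0375). The most abundant genes of the list were Ccnb1, Plk1, Kif4 and Ppp2r1a. Ccnb1 encodes cyclin B1, the partner of CDK1, which phosphorylates condensin. Its FPKM were 998.3 and 944.5 in NSN and 800.3 and 822.8 in SN, a log2 fold change of -0.26 that did not pass (limma adjusted p = 0.0653). Kif4, the kinesin that works with condensin on the chromosome axis, had 49.3 and 56.9 FPKM in NSN and 67.7 and 64.0 in SN (log2 fold change 0.31, limma adjusted p = 0.0892). The kinase gene Plk1 and Ppp2r1a, the scaffold subunit of protein phosphatase 2A, had log2 fold changes of -0.13 and -0.27 (limma adjusted p = 0.325 and 0.151).

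Other topoisomerases, their partners and the genes that repair or modify topoisomerase-DNA complexes formed a list of 18, of which 16 were listed and 14 tested. Of these, 2 were called higher and none lower, against 5.95% and 1.98% of all genes tested, with a median log2 fold change of 0.18 against 0.14. Blm, the helicase of the complex that dissolves double Holliday junctions with TOP3A, had FPKM of 10.1 and 11.6 in NSN and 15.5 and 16.6 in SN (log2 fold change 0.55, SE 0.11, limma adjusted p = 0.0440). Ercc6l, which encodes the PICH translocase found on the ultrafine bridges between chromatids, had 14.7 and 15.7 in NSN and 20.7 and 20.9 in SN (log2 fold change 0.44, SE 0.10, limma adjusted p = 0.0457). Top1, the type I enzyme, was the most abundant topoisomerase gene, at 65.4 and 67.7 FPKM in NSN and 90.4 and 80.4 in SN, with a log2 fold change of 0.35 that did not pass (limma adjusted p = 0.0585). Tdp2 and Tdp1, which remove trapped topoisomerase II and topoisomerase I from DNA ends, had log2 fold changes of 0.25 and -0.01. Neither passed the test (limma adjusted p = 0.134 and 0.948).

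The SMC5/6 complex, a relative of condensin that acts in DNA repair, had 8 of its 9 genes listed and tested. Of these, 4 were called higher in SN and none lower, against 5.95% and 1.98% of all genes tested, and the median log2 fold change was 0.46 against 0.14. Smc6 had FPKM of 16.8 and 19.3 in NSN and 24.7 and 25.8 in SN (log2 fold change 0.48, limma adjusted p = 0.0466). Its partner Smc5 had 2.91 and 3.35 in NSN and 3.15 and 3.21 in SN (log2 fold change 0.02, adjusted p = 0.938), and the difference between these partners was not tested. The others called were Nsmce4a, the kleisin gene of this complex, with a log2 fold change of 0.62, and Slf1 and Slf2, which recruit it to damaged DNA, with 0.61 and 0.66 (limma adjusted p = 0.0437, 0.0364 and 0.0420). Nsmce1 and Nsmce2, a ubiquitin and a SUMO ligase subunit, were the most abundant genes of the complex, with log2 fold changes of 0.18 and 0.15 that did not pass (limma adjusted p = 0.233 and 0.290).

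The remaining 5 SMC and SMC-like genes were all higher in both SN than in both NSN libraries, as were 44.8% of the genes tested. Of the 5, 2 were called higher (5.95% of all genes tested). These were Smc1a, at 8.69 and 9.59 FPKM in NSN and 16.1 and 13.2 in SN (log2 fold change 0.65, limma adjusted p = 0.0428), and Smc3, at 24.9 and 27.6 in NSN and 36.8 and 34.6 in SN (log2 fold change 0.43, limma adjusted p = 0.0466). Both encode cohesin subunits. The meiotic cohesin gene Smc1b had a log2 fold change of 0.48, Smchd1 0.38 and Rad50, of the double-strand break repair complex, 0.25 (limma adjusted p = 0.0618, 0.105 and 0.151). Of the SMC genes measured, Smc2 and Smc4 had the lowest log2 fold changes, and Smc2 alone was below 0 with the values as deposited. Smc5 was close to Smc4, at 0.02 against 0.01. After median scaling Smc5 and Smc4 also lay below 0, at -0.11 and -0.15. None of the calls in these lists was kept after median scaling, where limma adjusted p for the 9 genes called ran from 0.0583 (Slf1) to 0.101 (Smc3). The same held with all listed genes, quantile normalization, totals without the 100 most abundant genes, the length correction and no variance trend. With the replicate number as a block, 2 of the 9 were called, Slf1 and Slf2. All 9 were called with pseudocounts of 0.1 and 1, and all but Ppp2ca with a mean FPKM of at least 5. With voom on the read pairs all 9 were called, and with voom after median scaling 8 of them were (all but Ercc6l), where 6.38% of genes were called higher. None of the 9 was called without NSN replicate 1, SN replicate 1 or SN replicate 2, and all were without NSN replicate 2. In these fits, too, the spread comes from the group that keeps both libraries.

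**Figure D4:**
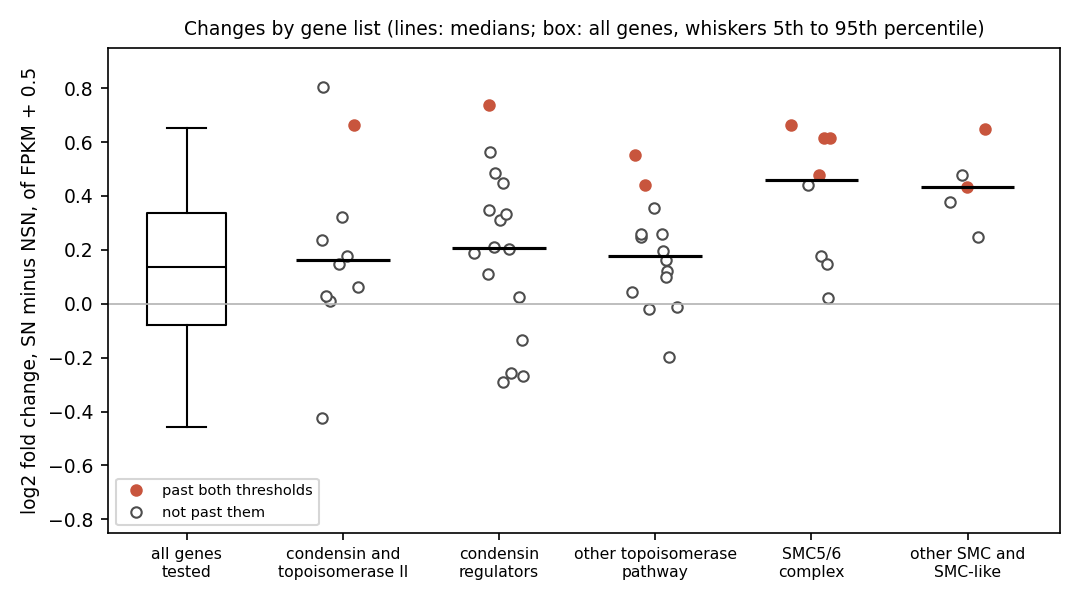
Log2 fold change (SN minus NSN, on the log2(FPKM + 0.5) scale) of each tested gene, by list, with genes past both thresholds in red and lines at the list medians. The box shows all 11672 genes tested, with whiskers at the 5th and 95th percentiles. The median of condensin and topoisomerase II, 0.16, lies near that of all genes, 0.14, while the medians of the SMC5/6 complex and of the other SMC genes lie at 0.46 and 0.43.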

How the data were processed

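RNA of mouse GV oocytes was measured in 2 NSN and 2 SN Smart-seq2 libraries. The study trimmed reads with Trim Galore 0.6.10, mapped them to GRCm39 with HISAT2 and counted read pairs on exons with featureCounts, unstranded. The deposited values are FPKM made by the authors with their own script. Their DESeq2 results and counts were not used here. The labels' protocol speaks of 3 samples per group, and 2 per group were analysed here.

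The library totals were solved from 5 mitochondrial tRNA genes of known length, and these gave whole read pairs and lengths for 99.89% of the 16861 genes. For these genes the read pairs of every library lay within 1e-06 of a whole number (1e-09 of the count for high counts), and for 19 genes no length gave whole read pairs. Amplified read pairs are not independent molecules, so intervals on counts cover counting error only. Values were taken as log2(FPKM + 0.5), which understates changes of low genes. Genes whose FPKM averaged 0.5 or more were compared between SN and NSN in limma 3.58.1 (R 4.3.3, lmFit, eBayes with a variance trend, Benjamini-Hochberg over all genes tested, two-sided). A gene was called at an adjusted p under 0.05 if it also changed 1.2-fold or more. Ratios and intervals were computed in Python 3.11.15 (scipy 1.17.1, pandas 2.3.3, numpy 2.4.6) and drawn with matplotlib 3.10.9.

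All 10 genes are named. Of the other lists, every gene past both thresholds is named, and up to 4 with the highest mean FPKM, of which 1 is not reported here. Other genes of a list are named for what they pair with (Smc5) or to complete it (Smc1b, Smchd1, Rad50). These were chosen after their values were seen. The genes and lists were chosen with earlier results of these data known. Positions, overlaps and transcripts came from GENCODE M39, a later release than the authors used, on the same build, and promoters from RefSeq on GRCm38.p6. No coordinates were converted between builds. Alternatives were pseudocounts of 0.1 and 1, other filters, scalings, a length correction (loess, span 0.3), no variance trend, the replicate block, voom, an adjusted p under 0.1 and leaving out each library. Added after seeing the data were canonical transcript lengths and a condensin ratio without Ncaph2.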

Additional observations from a re-analysis of the deposited data

How the results depend on the processing

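The number of genes called (926) moved with most settings, to 1496 with a mean FPKM of at least 5, 257 with median scaling, 230 with quantile normalization, 184 with totals that leave out the 100 most abundant genes, 2297 with voom, 1707 with voom and median scaling, 2370 at an adjusted p under 0.1, and 0 with all listed genes, with the length correction and with no variance trend, where limma gave 4092, 3129 and 3449 genes with an unadjusted p under 0.05. Leaving out each library, with the lone library assumed to vary like the other group, gave 0 (without NSN replicate 1, with 2278 genes at an unadjusted p under 0.05) to 1685 calls (without NSN replicate 2). The share of higher calls turned with the scaling, from 695 higher and 231 lower to 78 and 179 with median scaling, 74 and 156 with quantile normalization, 73 and 111 without the 100 most abundant genes, and 744 and 963 with voom and median scaling. Of the 10 genes, 0 in place of 1 were called higher with all listed genes, median scaling, quantile normalization, totals without the 100 most abundant genes, the length correction and no variance trend, and 2 (Top2a and Top2b) with both forms of voom and at an adjusted p under 0.1. Leaving out each library gave 0 to 2. Smc2 made 1 call in place of 0 as lower with a mean FPKM of at least 5, both forms of voom and an adjusted p under 0.1. Ncapd2 and Top2b have no value with a mean FPKM of at least 5. The cause of these changes was not tested.

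Log2 fold changes near 0 changed sign. Smc4 went from 0.01 to -0.15 with median scaling and with voom and median scaling, -0.0077 with quantile normalization, -0.0748 without the 100 most abundant genes, -0.12 with the length correction, and, with libraries left out, from -0.0288 to 0.0459. Ncapd2 went to -0.0201 with median scaling, -0.0793 with the length correction, -0.0490 with voom and median scaling, and from -0.0475 to 0.172 with libraries left out. Ncapd3 went to -0.0392 with quantile normalization and -0.0302 with the length correction. Ncaph2 went to -0.11 with median scaling, -0.13 with quantile normalization, -0.0470 without the 100 most abundant genes, -0.0356 with the length correction, -0.12 with voom and median scaling, and from -0.0347 to 0.0957 with libraries left out. None of these passed the test under any setting. The direction of Smc2, Ncapg, Ncaph, Ncapg2, Top2a and Top2b held in every setting run. The SN minus NSN difference in the log2 ratio of condensin I to condensin II ran from -0.08 to 0.07 with libraries left out. That of the Top2a to Top2b ratio ran from -0.73 to 0.11. With 2 libraries per group, leaving out a library cannot move the difference by more than the replicate spread. These ranges are therefore no test of stability.

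With the replicate number as a block, 422 genes were called and 0 of the 10 were called higher, with an adjusted p of 0.0502 for Top2a. Libraries with the same number did not deviate together (correlation across genes -0.07). This does not settle whether they were prepared together, which the labels do not say. Ncapd2 had the fewest read pairs of the 10 genes, 43 to 54 per library.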
